A study of Rattus norvegicus with 12 samples.

Results

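Oxidative phosphorylation genes encode the respiratory chain and the ATP synthase of mitochondria, and are described here in rat liver cells that carry the label of primary hepatic stellate cells (HSC). The members were taken by gene symbol: the subunits and named assembly factors of complexes I to V that begin with Nduf, Uqcr, Cox4 to Cox8 or Atp5, the 4 Sdh genes, and the protein genes of mitochondrial DNA (Mt-nd, Mt-co, Mt-cyb and Mt-atp), with a mean of at least 1 CPM (counts scaled to a common library total) over the 12 libraries. Of the 32623 genes listed, 111 matched by symbol. Of these, 95 were members, 82 nuclear and 13 mitochondrially encoded, 13 lay below 1 CPM, and 3 were lower copies of a repeated symbol. The rule used no comparison between groups.

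The rats had cirrhosis from chronic CCl4 inhalation, and their cells were separated by differential gradient centrifugation. For 24 h the cells shared medium, across the porous membrane of a Transwell insert, with 15000 viable hAEC (amniotic epithelial cells of human origin), with the same number of hAMSC (human mesenchymal stromal cells of the amnion), or with vehicle (Veh). Each group had 4 libraries of polyadenylated RNA, named by their sample numbers: hAEC 3, 4, 11 and 12, hAMSC 7, 8, 15 and 16, and Veh 17, 18, 19 and 20. The labels give no strain, sex or age. Whether libraries of a group stem from different animals or cultures is not stated either. The p-values hence reflect the spread among libraries alone, and that spread may be technical.

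Complexes I to IV pass electrons from NADH and succinate to oxygen and, except for complex II, pump protons across the inner mitochondrial membrane, and complex V, the ATP synthase, lets the protons back and makes ATP. Mitochondrial DNA is read from a few long transcripts that are cut into messages, while the other subunits come from nuclear genes, are made in the cytosol and are imported, so that every complex except II is built from the products of both genomes. In macrophages and in activated stellate cells the balance between this pathway and glycolysis is known to shift with the state of activation.

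The labelled cell type and the grouping of the libraries stand beside every value below. Total counts ran from 27382724 to 34922211. Of the 11 stellate and myofibroblast markers, Lrat and Lum were below 1 CPM and the median was 1.68 CPM, so the libraries went against the label. None of 15 macrophage markers was below 1 CPM (median 894 CPM). CPM are not corrected for transcript length, so these medians give no ratio between the lists. The libraries also fell into 2 sets that the labels do not name: a higher-numbered set (hAEC 11 and 12, hAMSC 15 and 16, Veh 19 and 20) and a lower-numbered set (hAEC 3 and 4, hAMSC 7 and 8, Veh 17 and 18), parted by the first principal component of the 2000 most variable genes with the members left out, which held 87.9% of their variance. Each set held 2 libraries of each group. The summed CPM of macrophage markers was 54500 to 56580 in the higher-numbered and 29690 to 31560 in the lower-numbered set, that of stellate markers 25.3 to 30.1 against 66.7 to 110, that of endothelial markers 206 to 346 against 475 to 602, and that of 8 hepatocyte markers, 6 of them below 1 CPM, 662 to 812 against 534 to 650. Not every marker followed its sum. Of the 15 macrophage markers, 10 were higher and 3 lower in the higher-numbered set without overlap of the libraries. Of the 11 stellate markers 1 was higher and 3 lower, of the 10 endothelial markers 0 and 4, and of the 8 hepatocyte markers 1 and 0. Over all genes tested, 24.8% were higher and 30.4% lower in this way. What the sets are was not tested, and in bulk RNA a change in the mix of cells and a change of RNA per cell cannot be told apart. The set was a term in the tests of treatment.

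Neither co-culture gave a member that passed the test. With hAEC against Veh, 0 of 95 members passed edgeR's quasi-likelihood test at an adjusted p of 0.05, where 0% of the 13539 genes tested passed. At an unadjusted p below 0.05 there were 6 members, against 5.61% of all genes, and DESeq2 and limma voom called 0 members too. With hAMSC against Veh, 0 of 95 passed, against 0.236% of all genes, with 4 at an unadjusted p below 0.05 (9.68% of all genes) and 0 by either other tool. With hAEC against hAMSC, 0 of 95 passed, against 0.0222% of all genes, with 0 at an unadjusted p below 0.05 (6.37% of all genes) and 0 by either other tool. The 2 comparisons with Veh share the same Veh libraries.

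The differences of the 82 nuclear members were small. Their log2 fold changes lay between -0.15 and 0.18 for hAEC and between -0.15 and 0.15 for hAMSC, with median SEs of 0.05, and their medians of -0.02 and -0.01 stood beside a median of 0.00 over all genes. For hAEC, 28 of the 82 were above 0 (34.1%, against 48.5% of all genes), and for hAMSC 34 (41.5%, against 48.9%). Genes were assigned to the complexes by symbol alone. By complex, the summed level of complex V was 3612 ± 97.4 CPM with hAEC, 3633 ± 189 with hAMSC and 3638 ± 124 with Veh (SD, n = 4 each). The sum of complex IV was 1620 ± 64.4 CPM with hAEC, 1627 ± 95.6 with hAMSC and 1631 ± 51.8 with Veh, and that of complex III was 775 ± 17.1, 777 ± 21.3 and 785 ± 25.4 CPM in the same groups. The groups differed by less than their SDs, which include the difference between the sets. Complex II, succinate dehydrogenase, summed to 640 ± 7.58 CPM with hAEC, 643 ± 27.4 with hAMSC and 649 ± 35.7 with Veh, and none of its 4 genes had a log2 fold change past 0.04 in size in either comparison with Veh.

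None of the nuclear members with the smallest p passed. Ndufaf4, an assembly factor of complex I, was at 24.0, 24.7, 15.8 and 14.3 CPM in hAEC 3, 4, 11 and 12, at 24.8, 23.5, 13.8 and 16.04 CPM in hAMSC 7, 8, 15 and 16, and at 22.7, 23.8, 12.2 and 12.8 CPM in Veh 17 to 20. Over all libraries the groups overlapped, since the first pair of each group was the higher one. In the higher-numbered set alone every co-culture library was above both Veh libraries, and in the lower-numbered set they overlapped. The log2 fold change of Ndufaf4 was 0.16 ± 0.07 (SE) with hAEC (edgeR adjusted p = 0.881) and 0.15 ± 0.07 with hAMSC (adjusted p = 0.49). Ndufa7, an accessory subunit of complex I, was at 39.0, 38.5, 40.4 and 39.9 CPM in the hAEC libraries, at 37.7, 40.5, 39.5 and 39.7 CPM in the hAMSC libraries and at 44.8, 43.1, 39.3 and 42.8 CPM in the Veh libraries. Veh 19 lay among the co-culture libraries and the other 3 Veh libraries above them. Its log2 fold change was -0.11 ± 0.05 in each comparison (edgeR adjusted p = 0.881 with hAEC and 0.437 with hAMSC). Atp5sl, which carries an Atp5 symbol but is a complex I assembly protein (Dmac2) and not an ATP synthase subunit, had the smallest p with hAMSC, with a log2 fold change of -0.14 ± 0.04 (edgeR adjusted p = 0.278), and -0.09 ± 0.04 with hAEC. Others with small p were Ndufc1 (0.18 ± 0.08), Atp5f1 (0.07 ± 0.04) and Ndufb7 (-0.13 ± 0.06) with hAEC, and Ndufc2 (0.12 ± 0.06), Ndufb5 (0.09 ± 0.05) and Ndufs7 (-0.14 ± 0.06) with hAMSC. Of these, Atp5f1 is a stalk subunit of the ATP synthase, Ndufs7 carries an iron-sulfur cluster of complex I, and the rest are accessory subunits of its membrane arm. Between hAEC and hAMSC the smallest p belonged to Atp5l (-0.09 ± 0.04, edgeR adjusted p = 0.786), Ndufb9 (-0.06 ± 0.04) and Ndufa3 (-0.11 ± 0.07) below 0, and Ndufc1 (0.17 ± 0.08), Ndufa6 (0.06 ± 0.04) and Ndufab1 (0.10 ± 0.07) above 0.

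**Figure D1:**
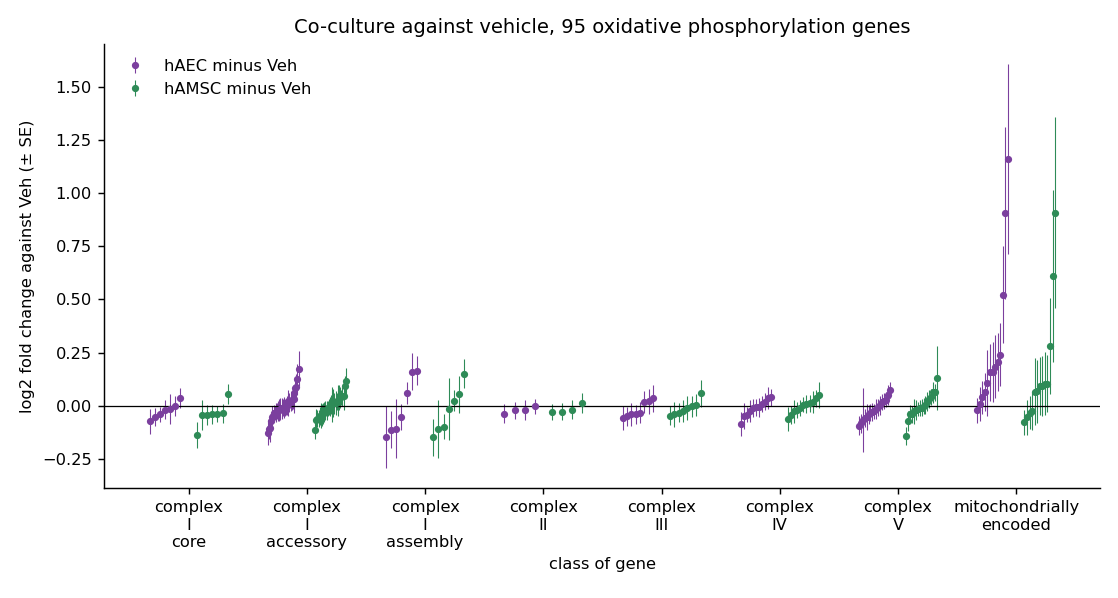
Log2 fold change against Veh (vertical axis, ± SE) of the 95 members by class (horizontal axis), for hAEC and for hAMSC. Each point is 1 gene. The nuclear classes lie within -0.15 and 0.18, while 3 mitochondrially encoded genes stand out with wide errors, up to 1.16 ± 0.45 for Mt-nd4l with hAEC, and no gene passed the test.

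The 13 mitochondrially encoded genes varied more than the nuclear ones, both between groups and between libraries of one group. Together they held 2.15%, 1.77%, 2.61% and 2.38% of counts in hAEC 3, 4, 11 and 12, 2.07%, 1.85%, 1.98% and 2.44% in hAMSC 7, 8, 15 and 16, and 1.73%, 1.81%, 2.38% and 2.54% in Veh 17 to 20. Over both sets the groups overlapped. Their means were 2.23% ± 0.358 with hAEC, 2.09% ± 0.256 with hAMSC and 2.11% ± 0.406 with Veh (SD, n = 4 each). These SDs include the difference between the sets. In the lower-numbered set alone both hAMSC libraries were above both Veh libraries, while in the higher-numbered set hAMSC and Veh overlapped. Libraries of hAEC and Veh overlapped in each set. The nuclear members held 0.904% ± 0.0253 of counts with hAEC, 0.908% ± 0.0454 with hAMSC and 0.912% ± 0.0295 with Veh. The ratio of the mitochondrial to the nuclear sum was 2.46 ± 0.357 with hAEC, 2.30 ± 0.247 with hAMSC and 2.31 ± 0.417 with Veh, again within the spread of each group. Mitochondrial messages carry short poly(A) tails, so these shares are of RNA captured by poly(A) selection, and how far capture differed between libraries was not tested.

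**Figure D2:**
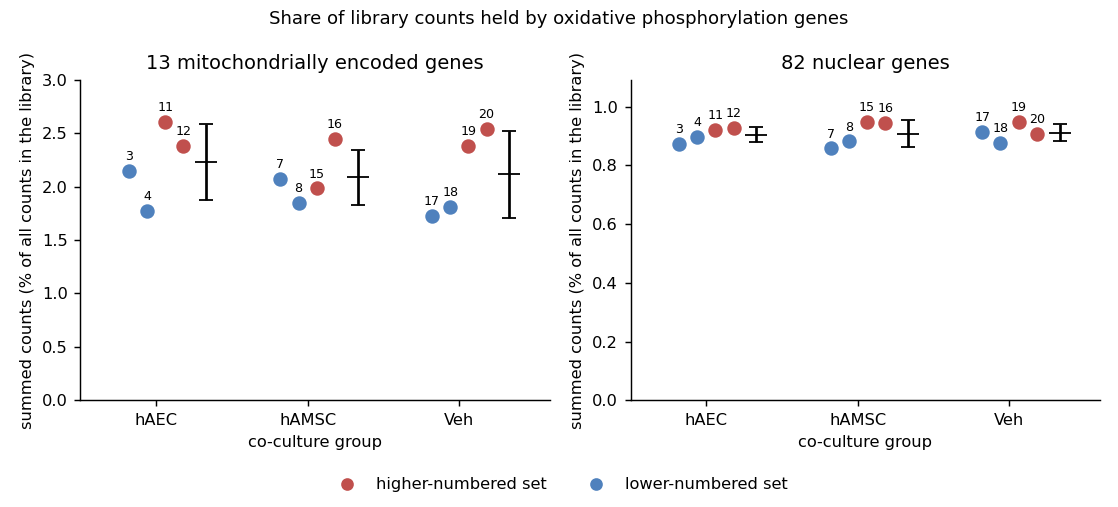
Share of all counts in a library (vertical axes, %) held by the 13 mitochondrially encoded genes (left) and the 82 nuclear genes (right), by group (horizontal axes), with the mean and SD of each group to the right of its points. Each point is 1 library with its sample number, coloured by set: hAMSC 15, at 1.98%, is the lowest of the higher-numbered set for mitochondrial genes, and the nuclear share stays between 0.858% and 0.949%.

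Of these genes, the 3 with the largest differences were Mt-nd4l, Mt-atp8 and Mt-nd3, which were singled out after their values were seen. Mt-nd4l, a small membrane subunit of complex I, was at 99.1, 46.8, 117.6 and 104.8 CPM in hAEC 3, 4, 11 and 12, at 95.2, 81.9, 31.1 and 94.1 CPM in hAMSC 7, 8, 15 and 16, and at 31.6, 39.4, 29.3 and 63.9 CPM in Veh 17 to 20. Over both sets, libraries hAEC 4 and hAMSC 15 lay within the Veh range and the other 6 co-culture libraries above it. Its log2 fold change was 1.16 ± 0.45 with hAEC (SE, edgeR adjusted p = 0.881) and 0.91 ± 0.45 with hAMSC (adjusted p = 0.567). Mt-atp8, a small subunit of the ATP synthase, was at 121.2, 66.4, 231.5 and 198.3 CPM with hAEC, at 116.5, 98.3, 68.0 and 177.8 CPM with hAMSC, and at 54.3, 57.5, 63.1 and 146.6 CPM with Veh. Here every co-culture library was above Veh 17, 18 and 19, and Veh 20 stood apart from the other Veh libraries. The log2 fold change was 0.91 ± 0.40 with hAEC (edgeR adjusted p = 0.881) and 0.61 ± 0.41 with hAMSC (adjusted p = 0.68). Mt-nd3, another small subunit of complex I, was at 190.5, 137, 241.3 and 221 CPM with hAEC, at 177.7, 155.7, 111.9 and 210.7 CPM with hAMSC, and at 124.8, 115.4, 128.4 and 178.1 CPM with Veh. hAMSC 15 was the lowest of all 12 libraries and, over both sets, Veh 20 overlapped the co-culture groups. Its log2 fold change was 0.52 ± 0.23 with hAEC (edgeR adjusted p = 0.881) and 0.28 ± 0.23 with hAMSC (adjusted p = 0.753). Within each set, both hAEC libraries were above both Veh libraries for all 3 genes. For hAMSC this held in the lower-numbered set, while in the higher-numbered set hAMSC and Veh overlapped for all 3 genes.

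The other 10 mitochondrial genes differed less. Their log2 fold changes with hAEC were 0.24 for Mt-atp6, 0.21 for Mt-co2, 0.18 for Mt-nd2, 0.16 for Mt-nd4 and for Mt-nd5, 0.11 for Mt-nd6, 0.06 for Mt-cox3, 0.04 for Mt-nd1, 0.01 for Mt-co1 and -0.02 for Mt-cyb. With hAMSC they were 0.10 for Mt-atp6 and for Mt-nd4, 0.09 for Mt-co2 and for Mt-nd5, 0.07 for Mt-nd2 and for Mt-nd6, -0.02 for Mt-cox3, -0.03 for Mt-nd1, -0.05 for Mt-co1 and -0.08 for Mt-cyb. In all, 12 of 13 mitochondrial genes were above 0 with hAEC (median 0.16) and 9 of 13 with hAMSC (median 0.09), and 13 of 13 were above 0 for hAEC against hAMSC (median 0.09), though 11 of 13 were below 0 in the lower-numbered set alone. Without hAMSC 15, Mt-nd4l (-0.08) and Mt-atp8 (-0.01) were lower with hAEC than with hAMSC. These genes are cut from shared transcripts and moved together between libraries, as described next, so their number is no count of independent observations. Mt-co1, the catalytic subunit of complex IV, was at 9439, 8248, 9832 and 8937 CPM with hAEC, at 9256, 8075, 8038 and 9459 CPM with hAMSC, and at 8040, 8255, 10200 and 9829 CPM with Veh. Over both sets the groups overlapped, but in the higher-numbered set both hAMSC libraries were below both Veh libraries. Mt-cyb, the cytochrome b of complex III, was at 1803, 1618, 2407 and 2202 CPM with hAEC, at 1715, 1558, 2119 and 2325 CPM with hAMSC, and at 1577, 1658, 2478 and 2522 CPM with Veh. Its libraries parted by set. Within the higher-numbered set every co-culture library was below both Veh libraries, and within the lower-numbered set the groups overlapped. Mt-atp6 and Mt-atp8 overlap on the mitochondrial genome, as do Mt-nd4 and Mt-nd4l, so the division of counts within each pair is uncertain.

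Libraries of the same group and set served to show how far mitochondrial genes varied with the treatment held fixed. Between hAMSC 16 and hAMSC 15 Mt-nd4l differed by 3.02-fold, Mt-atp8 by 2.62-fold and Mt-nd3 by 1.88-fold, while the sum of the other 10 mitochondrial genes differed by 1.22-fold. Between Veh 20 and Veh 19 the folds were 2.19 for Mt-nd4l, 2.33 for Mt-atp8, 1.39 for Mt-nd3 and 1.06 for the other 10, and between hAEC 3 and hAEC 4 they were 2.12, 1.83, 1.39 and 1.21. Within the pairs hAEC 11 and 12, hAMSC 7 and 8, and Veh 17 and 18 Mt-nd4l differed by 1.12-fold, 1.16-fold and 1.25-fold. The nuclear sum differed by at most 1.05-fold in any of the 6 pairs. In all 6 pairs, 10 of the other 12 mitochondrial genes were higher in the same library as Mt-nd4l. Of the 82 nuclear members 0 were, against 2.29% of 13444 other genes. The opposite order in all 6 pairs was seen in 9 nuclear members (10.98%), against 1.64% of the other genes. The residual biological coefficient of variation, which is the spread between replicates beyond counting error, had a median of 13.8% over mitochondrial genes, with 42.3% for Mt-nd4l, against 5.54% over nuclear members and 8.39% over all genes tested. The share of genes at or above Mt-nd4l was 2.59%.

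**Figure D3:**
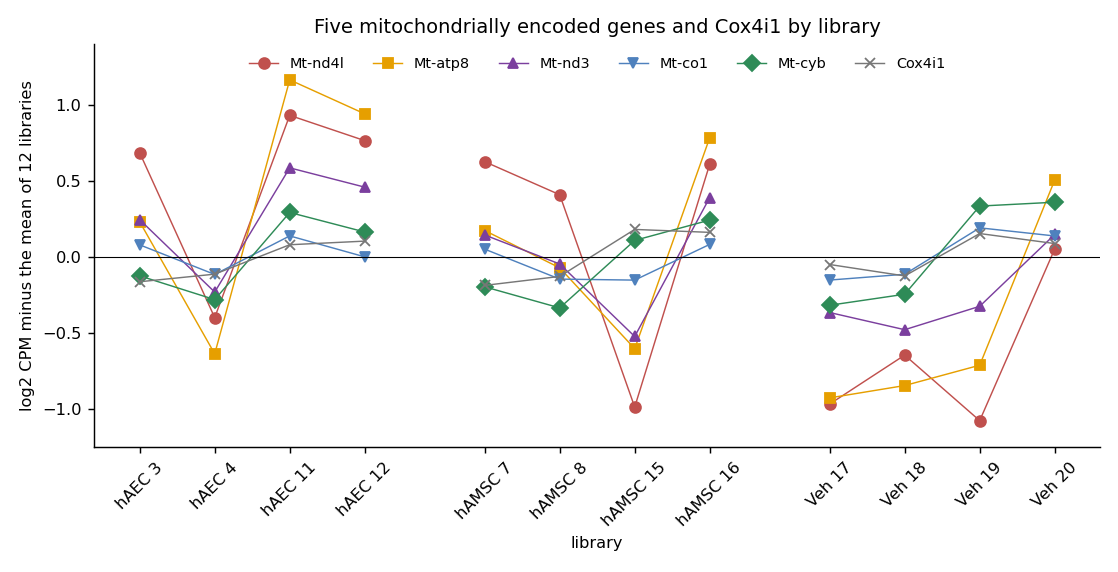
Level of 5 mitochondrially encoded genes and of nuclear Cox4i1 in each library (horizontal axis), as log2 CPM minus the gene's mean over the 12 libraries (vertical axis), with lines joining libraries of a group. Mt-nd4l, Mt-atp8 and Mt-nd3 are low together in hAEC 4, hAMSC 15 and Veh 17, 18 and 19, while Mt-co1, Mt-cyb and Cox4i1 move less.

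Within the sets the mitochondrial genes gave different values for hAMSC. In the higher-numbered set 3 of 13 were above 0 for hAMSC against Veh (median -0.13), while in the lower-numbered set all 13 were (median 0.31). For hAEC against Veh, 10 of 13 were above 0 in the higher-numbered set (median 0.13) and 13 in the lower-numbered set (median 0.22). Between hAEC and hAMSC the direction turned, with 13 of 13 above 0 in the higher-numbered set (median 0.27) and 11 of 13 below 0 in the lower-numbered set (median -0.05). For the comparisons with Veh, the difference between the sets was tested as an interaction of treatment and set, fitted with edgeR over all genes. For hAEC 0 of 95 members passed, against 0% of all genes, with 6 at an unadjusted p below 0.05 (5.4% of all genes) and 0 called by DESeq2 or limma voom. For hAMSC 0 of 95 passed, against 0.199% of all genes, with 8 at an unadjusted p below 0.05 (10% of all genes) and 0 called by either other tool. The 13 mitochondrial genes were all below 0 in the interaction for hAMSC, from -0.22 ± 0.10 for Mt-cyb (edgeR adjusted p = 0.475) to -0.92 ± 0.90 for Mt-nd4l (adjusted p = 0.784). Mt-nd1 was at -0.32 ± 0.13 (edgeR adjusted p = 0.432) and Mt-co1 at -0.32 ± 0.14 (adjusted p = 0.47). These values rest on 2 libraries of a group in each set, of which hAMSC 15 is one. With no filter on low counts, 10 mitochondrial genes passed this test, all lower, with SEs of 0.09 to 0.10, far below the spread just given for Mt-nd4l between libraries of one group.

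Among nuclear members, those with the smallest p in the interaction for hAEC were Atp5g1 (0.22 ± 0.07, edgeR adjusted p = 0.779), Uqcrh (0.22 ± 0.08) and Ndufaf2 (0.49 ± 0.24) above 0, and Atp5g3 (-0.17 ± 0.07), Ndufb5 (-0.20 ± 0.09) and Ndufv2 (-0.18 ± 0.08) below 0. For hAMSC they were Ndufa3 (0.35 ± 0.10, edgeR adjusted p = 0.258), Atp5i (0.30 ± 0.10) and Atp5g1 (0.20 ± 0.07) above 0, and Ndufc2 (-0.20 ± 0.11), Uqcrc2 (-0.16 ± 0.10) and Atp5s (-0.42 ± 0.28) below 0. Atp5g1 is 1 of the 3 genes of the proton-carrying subunit c, Uqcrh the hinge protein of complex III, and Uqcrc2 one of its core proteins. Atp5g1 was at 124 and 125 CPM in Veh 17 and 18, above the 108 to 113 CPM of the co-culture libraries of that set, and at 92.8 and 95.6 CPM in Veh 19 and 20, below the 96.8 to 102 CPM of the co-culture libraries of the higher-numbered set.

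Between the 2 sets the nuclear members spanned log2 differences of -0.74 to 0.56, a wider range than between the groups. The sets were found in the data, so their difference is described and not tested. Of the 95 members, 34 were higher in all 6 libraries of the higher-numbered set than in any of the lower-numbered set, against 24.8% of all genes tested, and 12 were lower in the same way, against 30.4%. None of the 95 was past 1 log2 unit, against 14.6% of all genes, and 7 were past 0.5, against 36.7%. The median log2 difference was 0.13 over the members and -0.04 over all genes. Nuclear members split into 30 higher and 12 lower of 82, and mitochondrial genes into 4 higher and 0 lower of 13. The nuclear share of counts was 0.906% to 0.949% in the higher-numbered and 0.858% to 0.915% in the lower-numbered set, and the mitochondrial share 1.98% to 2.61% against 1.73% to 2.15%, so both overlapped.

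By complex, the share of members higher without overlap, to be read against the 24.8% of all genes, was 52.9% in complex V, with 9 higher and 2 lower of 17 (median 0.13, Atp5s and Atp5sl counted here by symbol). It was 45.5% in complex IV, with 5 higher and 1 lower of 11 (0.10), and 37.5% in complex III, with 3 and 2 of 8 (0.15). Of the 28 members counted by symbol as accessory subunits of complex I, Ndufa4 included, 10 were higher (35.7%) and 3 lower (0.09). Its 7 core subunits had 1 higher and 0 lower (0.11), and complex II had 1 of each among 4 (0.10). The 7 complex I assembly factors with an Ndufaf symbol had 1 higher and 3 lower (median -0.25), where all genes gave 24.8% and 30.4%. Assembly factors of complex I under other symbols lay on both sides of 0: Timmdc1 (0.19), Tmem126b (0.16), Nubpl (0.14) and Ecsit (0.04) overlapped between the sets, Foxred1 (-0.34) and Acad9 (-0.14) were lower without overlap, and Atp5sl (0.44) was higher without overlap.

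Assembly factors gave both extremes of the nuclear members. Ndufaf4 was at 12.2 to 16.04 CPM in the 6 libraries of the higher-numbered set (median 14.1) and at 22.7 to 24.8 CPM in the lower-numbered set (median 23.9), a log2 difference of -0.74. Ndufaf6 (-0.58) and Ndufaf5 (-0.36), which act at other steps of complex I assembly, were also lower, although the libraries of Ndufaf6 overlapped at 3.601 to 6.15 against 5.87 to 8.54 CPM. Ndufaf7, a methyltransferase that acts in complex I assembly, was at 53.1 to 57.3 CPM in the higher-numbered set and at 34.8 to 39.9 CPM in the lower-numbered set, a difference of 0.56. After Ndufaf7 the largest positive differences of nuclear members were those of accessory subunits of complex I, Ndufb2 (0.50), Ndufa8 (0.49) and Ndufb11 (0.49), and then of Atp5sl (0.44). Ndufb2, for example, was at 46.2 to 49.0 CPM in the higher-numbered set and at 31.8 to 36.6 CPM in the lower-numbered set. Beside Ndufaf4, Ndufaf6 and Ndufaf5, the negative extremes were the complex IV subunit Cox5a (-0.47) and the complex I accessory subunit Ndufs5 (-0.36).

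**Figure D4:**
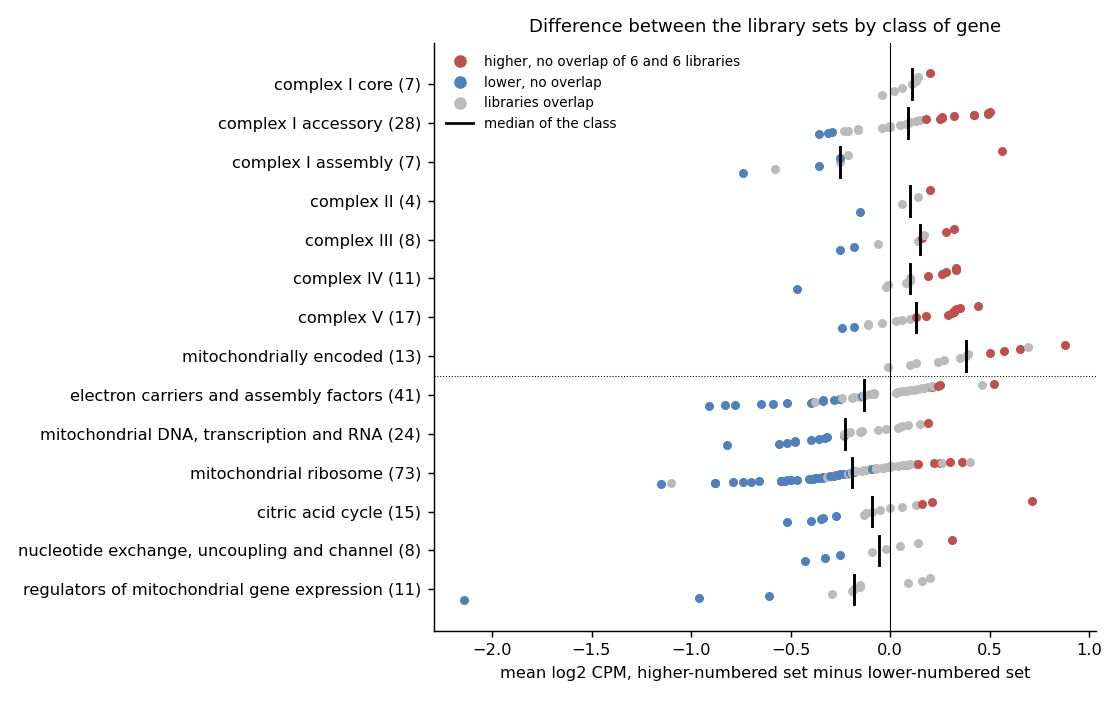
Difference in mean log2 CPM between the higher-numbered and the lower-numbered set (horizontal axis) for each gene, by class (rows, with the number of genes tested). Rows above the dotted line are the 95 members and rows below it are other mitochondrial genes; colours mark genes whose 6 and 6 libraries do not overlap and black bars the class medians, which are above 0 in every member class except the complex I assembly factors and below 0 in all 6 other lists.

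Some subunits of one complex parted between the sets, in pairs that were chosen after values were seen. Cox5a, a nuclear subunit on the matrix side of complex IV, was at 150 to 165 CPM in the higher-numbered set and at 210 to 225 CPM in the lower-numbered set. Cox4i1, a regulatory subunit of the same complex, was at 367 to 393 CPM in the higher-numbered set and at 305 to 335 CPM in the lower-numbered set. The ratio of Cox4i1 to Cox5a counts, which is not corrected for length and is compared only between libraries, was 2.34 to 2.44 in the higher-numbered and 1.38 to 1.51 in the lower-numbered set. In the catalytic head of the ATP synthase, Atp5a1 (subunit alpha) was at 654 to 709 CPM in the higher-numbered set and 537 to 565 CPM in the lower-numbered set, while Atp5b (subunit beta) overlapped at 1111 to 1202 against 1200 to 1298 CPM. Their ratio was 0.573 to 0.606 in the higher-numbered and 0.433 to 0.448 in the lower-numbered set.

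The 3 genes of ATP synthase subunit c, whose mature proteins are identical, moved in different directions. Atp5g2 was at 207 to 219 CPM in the higher-numbered and 167 to 187 CPM in the lower-numbered set, Atp5g1 at 92.8 to 102 against 108 to 125 CPM, and Atp5g3 overlapped at 148 to 166 against 165 to 175 CPM. Of the summed counts of the 3 genes, Atp5g2 held 44.95% to 46.04% in the higher-numbered and 36.9% to 38.8% in the lower-numbered set, Atp5g1 held 19.6% to 22.0% against 24.1% to 26.7%, and Atp5g3 held 32.0% to 34.97% against 35.2% to 38.7%. The sum itself overlapped, at 459 to 480 CPM in the higher-numbered and 442 to 482 CPM in the lower-numbered set. The messages of these genes are alike in their coding part, so the division of reads among them carries an uncertainty that the values do not show.

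Mitochondrial genes also differed from each other between the sets. Mt-atp6, the proton channel subunit of the ATP synthase, was at 1527 to 2326 CPM in the higher-numbered set and 902 to 1342 CPM in the lower-numbered set (log2 difference 0.88), and Mt-co2 (0.65), Mt-cox3 (0.57) and Mt-cyb (0.50) did not overlap either. Mt-nd2 overlapped, at 933 to 1414 against 1060 to 1438 CPM (-0.01), as did Mt-co1 (0.13) with 8038 to 10200 against 8040 to 9439 CPM. The pair of Mt-atp6 and Mt-nd2 was chosen after values were seen. The ratio of Mt-atp6 to Mt-nd2 counts was 1.604 to 1.73 in the higher-numbered and 0.847 to 0.938 in the lower-numbered set, and in each of the 12 libraries it followed the set and not the group. hAMSC 15, a library low in Mt-nd4l, Mt-atp8 and Mt-nd3, was at 1.64 like the others of its set.

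**Figure D5:**
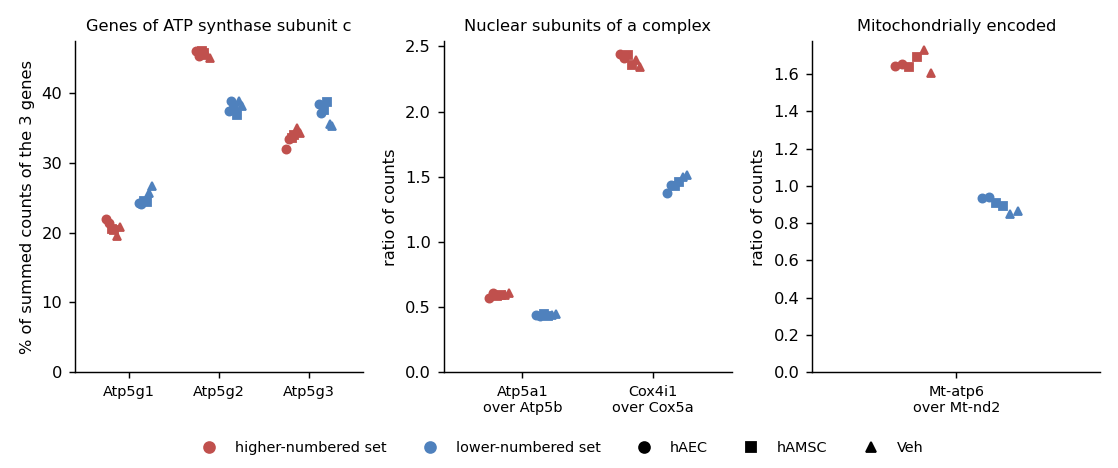
Share of the 3 subunit c genes in their summed counts (left, %) and ratios of counts of subunit pairs (middle and right), with each point 1 library, colours the sets and shapes the groups. Atp5g2 holds 44.95% to 46.04% in the higher-numbered and 36.9% to 38.8% in the lower-numbered set, and the 6 and 6 libraries do not overlap in any of the 6 measures. The subunit pairs were chosen after values were seen, so this is no test. Of all genes tested, 24.8% were higher and 30.4% lower without overlap.

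Genes of the pathway outside the rule are set beside the 24.8% of all genes that were higher and the 30.4% that were lower without overlap. Of 41 electron carriers and assembly factors tested (cytochrome c1 included), 4 were higher (9.76%) and 14 lower (34.15%, near the share of all genes), with a median of -0.13. The 4 higher ones were Etfdh (0.52), which passes electrons from fatty acid oxidation to ubiquinone, Atpaf1 (0.25), an assembly factor of the ATP synthase, and Surf1 (0.24) and Cox19 (0.21), assembly factors of complex IV. Cycs, the cytochrome c that carries electrons to complex IV, was at 33.7 to 43.3 CPM in the higher-numbered set and 63.0 to 76.8 CPM in the lower-numbered set (-0.83), and Bcs1l (-0.91), a complex III assembly factor, and Sco1 (-0.78), a copper chaperone of complex IV, were lower as well. Of 24 genes of mitochondrial DNA upkeep, transcription and RNA processing, 1 was higher (4.17%) and 10 lower (41.7%), with a median of -0.22, including Tfam, which packs mitochondrial DNA and starts its transcription, at 23.9 to 26.1 against 31.5 to 34.4 CPM (-0.40). Among 11 regulators, 0 were higher and 3 lower (27.3%, near the share of all genes): Myc (-2.14), the coactivator Pprc1 (-0.96) and the nuclear receptor Esrra (-0.61). Nrf1, Gabpa and Yy1, which encode transcription factors known to act on nuclear genes of the respiratory chain, overlapped between the sets (-0.15, -0.19 and -0.18).

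In the treatment comparisons 0 of 41, 24 and 11 genes of these lists passed for hAEC or hAMSC against Veh or against each other by edgeR, DESeq2 or limma voom. At an unadjusted p below 0.05, edgeR gave 0, 0 and 0 for hAEC against Veh (5.61% of all genes), 1, 1 and 0 for hAMSC against Veh (9.68% of all genes), and 1, 0 and 1 for hAEC against hAMSC (6.37% of all genes). In the interaction for hAMSC, which 0.199% of all genes passed, Myc alone of these lists passed (0.56 ± 0.09, edgeR adjusted p = 0.0198), and was called there by DESeq2 and not by limma voom. This call did not hold with every library left out in turn, as the counts given below show. In the interaction for hAEC, Myc was at 0.26 ± 0.09 and did not pass (edgeR adjusted p = 0.865). Myc was at 121.5, 137.2, 37.2 and 33.9 CPM in hAMSC 7, 8, 15 and 16 and at 135, 142.5, 24.6 and 26.1 CPM in Veh 17 to 20, so that hAMSC lay above Veh in the higher-numbered set and overlapped it in the lower-numbered set. In hAEC 3, 4, 11 and 12 it was at 130.8, 131.6, 28.7 and 29.7 CPM, also above Veh in the higher-numbered set, and below Veh in the lower-numbered set.

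Isoforms known from muscle, testis or hypoxic tissue were near 0. Cox4i2, the counterpart of Cox4i1 known from lung and hypoxia, reached 3 counts at most in a library, while Cox6a2, Cox6b2, Cox7a1 and Ndufa4l2 stayed at or below 0.288, 0.254, 0.263 and 0.0665 CPM. Cox8b had 1 count in 1 library and Cox8c none. The widely expressed forms were all members, and their CPM are given for the spread over libraries: Cox6a1 lay between 171 and 189 CPM, Cox6b1 between 131 and 149, Cox7a2 between 60.6 and 77.6, Cox7a2l between 126 and 159, Cox8a between 106 and 154 and Ndufa4 between 108 and 130 CPM. Another 4 rows without a count were Cox6c-ps1, Cox7b2, Ndufa10l1 and Ndufb4l1. Ndufa13 and Ndufs6, subunits that complex I needs in every cell, were listed at 0 to 1.08 and 0 to 0.388 CPM in this annotation, and no level is read from them. The lower copies of repeated symbols held 64.9 to 86.1 CPM for Cox6b1, 29.0 to 37.8 for Uqcrb and 1.55 to 4.66 for Ndufv3, so the levels given for these 3 members leave out part of the reads listed under their symbols.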

How the data were processed

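The authors deposited 1 table of expected counts per library, of which 90.1% are whole numbers. Poly(A) RNA from an RNAqueous-Micro extraction went into TruSeq stranded mRNA libraries, per the labels' protocols. The submitters' processing notes name RSEM, STAR, Trim Galore, FastQC and limma, and the builds Rnor_6.0 and rn6, with no version or role for any of them. RSEM divides reads that match more than 1 gene, which touches close paralogs and overlapping genes. Of 32623 rows, 11932 had 0 in all libraries.

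CPM were computed from the deposited expected counts and total counts. For the log2 differences between the sets and for medians of log2 CPM, 0.5 CPM was added. Expected counts were rounded and tested with edgeR 4.0.16 (R 4.3.3): filterByExpr kept 13539 genes, TMM factors were 0.973 to 1.03, and 1 robust quasi-likelihood fit over 12 libraries held group and set. The fit for the interaction held the 6 means of group and set. SEs are the log2 fold change over the root of the F statistic, tests are two-sided, and p-values were adjusted by Benjamini-Hochberg over all genes tested, at 0.05. The common biological coefficient of variation was 9.91% with the set as a term and 38.9% without it. No 2 libraries were duplicates (chi-square per gene at least 6.24 over 66 pairs). The scripts were tested on simulated data. DESeq2 1.42.0 and limma voom 3.58.1 were among the alternatives, as were other scalings, filters and each library left out.

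Members, sets and lists were chosen with earlier results of these data known. Named with values are all mitochondrial members, the 5 largest set differences in each direction, and isoform pairs. In each comparison the 3 nuclear members with the smallest p in each direction are named too. Subunit pairs, and Mt-nd4l, Mt-atp8 and Mt-nd3 as a group, were added after values were seen. The values of 1 member are not reported here. No transcript lengths were used, so CPM of different genes, marker lists and isoforms included, are not on 1 scale.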

Additional observations from a re-analysis of the deposited data

Results flagged for a closer look

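In 288 groups of 4 libraries (94 members and the 2 sums in 3 groups), 6 had a library that stood apart, by a gap to the next that took up most of the group's range (Dixon's test). For 4 values drawn from 1 normal distribution, chance flags about 1 in 20 groups. Each group here joins 2 libraries of each set, so how often chance flags a group in these data is not known. Mt-atp8 was at 146.6 CPM in Veh 20, against 54.3 to 63.1 CPM in the other Veh libraries, and Mt-nd6, the mitochondrial gene on the opposite strand to the rest, was at 227 CPM in Veh 20, against 135.5 to 147.6 CPM. In the same library Mt-nd4l was the highest of its group. Ndufaf1 was at 12.8 CPM in Veh 17, against 10.6 to 10.8 CPM in the other Veh libraries. Among hAEC libraries Ndufa11 was at 66.4 CPM in hAEC 12, against 61.8 to 62.3 CPM, and Ndufab1 at 22.8 CPM in hAEC 11, against 26.9 to 27.5 CPM. Among hAMSC libraries Atp5d was at 139.3 CPM in hAMSC 8, against 128.4 to 130.1 CPM. No member passed the interaction of treatment and set in edgeR's test, except that 10 mitochondrial genes passed the one for hAMSC with no filter on low counts.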

How the results depend on the processing

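No member passed in any of the 5 comparisons under any alternative, each library left out included (0 to 0), except that with no filter on low counts 10 mitochondrial genes passed the hAMSC interaction. Mt-nd1 and Mt-co1 are 2 of them (-0.32 each); over all genes that setting called 533, against 27. The count of all genes called moved more: leaving out 1 library gave 8 to 153 for hAMSC against Veh (32), 0 to 50 for hAEC against hAMSC (3), 0 to 158 for the hAMSC and 0 to 5 for the hAEC interaction (27 and 0), and DESeq2 called 157, 79, 102 and 22 in the same order, so these backgrounds are imprecise. Without the set as a term the 3 treatment counts were 0.

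Signs changed for differences near 0 or within one set. In the higher-numbered set alone, added after seeing the data, Mt-co1 (-0.11) and Mt-nd1 (-0.04) turned for hAEC against Veh, and Mt-nd5 (-0.15), Mt-atp6, Mt-co2 and Mt-nd2 (-0.13 each), Mt-nd4 (-0.12) and Mt-nd6 (-0.08) for hAMSC against Veh. In the lower-numbered set alone Mt-cyb turned for hAEC (0.09) and hAMSC (0.04) against Veh, as did Mt-co1 and Mt-cox3 (0.11 each) and Mt-nd1 (0.14) for hAMSC. Between hAEC and hAMSC 11 of 13 mitochondrial genes turned there, Mt-nd4l (-0.29), Mt-atp8 (-0.21), Mt-nd6 (-0.13), Mt-nd5 (-0.12), Mt-co2 and Mt-nd2 (-0.07 each), Mt-nd4 (-0.05), Mt-nd3 (-0.04), Mt-atp6 and Mt-cox3 (-0.02 each) and Mt-nd1 (-0.01), and of the nuclear members named for this comparison Ndufab1 (-0.02). Leaving out 1 library gave -0.03 to 0.06 for Mt-co1, -0.06 to 0.02 for Mt-cyb and 0.00 to 0.08 for Mt-nd1 with hAEC against Veh, and -0.13 to 0.01 for Mt-co1 and -0.09 to 0.04 for Mt-nd1 with hAMSC against Veh. Between hAEC and hAMSC it gave -0.08 to 0.50 for Mt-nd4l, -0.01 to 0.51 for Mt-atp8 and 0.00 to 0.14 for Mt-co1, each lowest without hAMSC 15. The causes were not tested. The nuclear sum moved with the median log2 CPM of the members in its place, to 0.03 for hAEC against Veh (-0.01) and 0.33 for the higher-numbered against the lower-numbered set (0.08). Leaving out 1 library kept the counts without overlap at 34 to 37 higher and 12 to 15 lower, and TMM factors gave 40 and 9. No paired analysis was possible because the groups share no sample numbers. With 2 libraries per group and set, interactions had a median SE of 0.25 for mitochondrial genes, so differences of that size could not be shown.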

Other observations

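Of 73 genes of the mitochondrial ribosome, 5 were higher (6.85%, against 24.8% of all genes) and 33 lower (45.2%, against 30.4%) in the higher-numbered set without overlap (median -0.19), with Mrps10 at 8.11 to 9.49 CPM in the higher-numbered and 18.7 to 23.2 CPM in the lower-numbered set (-1.15) and Mrps18b at 36.0 to 43.8 against 68.4 to 80.2 CPM (-0.88). The 15 genes of the citric acid cycle split into 3 higher and 5 lower, shares of 20% and 33.3% that lie near those of all genes. Idh2, the NADP-linked isocitrate dehydrogenase, was at 225 to 237 CPM in the higher-numbered and 134 to 145 CPM in the lower-numbered set (0.71), and Idh3a, a subunit of the NAD-linked enzyme, at 46.3 to 55.2 against 69.1 to 76.3 CPM (-0.52). Of 8 genes of nucleotide exchange, uncoupling and channels, 1 was higher (12.5%) and 3 lower (37.5%, near the share of all genes) without overlap. The 3 lower ones were the voltage-dependent channels of the outer membrane, Vdac1 (-0.43), Vdac3 (-0.33) and Vdac2 (-0.25). The higher one was Slc25a20 (0.31), at 61.0 to 64.5 against 47.9 to 53.0 CPM. The uncoupling protein Ucp2 overlapped at 246 to 278 against 242 to 276 CPM. In the treatment comparisons none of these 3 lists had a gene that passed edgeR's test; at an unadjusted p below 0.05 the mitochondrial ribosome had 3 of 73 for hAEC against Veh (4.11%, against 5.61% of all genes) and 4 for hAMSC against Veh (5.48%, against 9.68%). In the interaction for hAMSC it had 10 by edgeR (13.7%, against 10% of all genes), 10 by limma voom and 4 by DESeq2, and 0 passed.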
